A study of Mus musculus with 6 samples.

Results

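The BCL2 family genes described here are 10 genes, *Bcl2*, *Bcl2l1*, *Mcl1*, *Bcl2a1b*, *Bcl2a1d*, *Bax*, *Bak1*, *Bcl2l11*, *Bbc3* and *Pmaip1*. They were chosen by name from the 32285 genes of the feature table, with earlier results of these data known. Proteins of this family decide whether the outer mitochondrial membrane is opened, a step that releases cytochrome c and starts the caspases. The effectors BAX and BAK open the membrane, pro-survival members (BCL-2, BCL-XL from *Bcl2l1*, MCL-1 and the A1 proteins) hold them in check, and BH3-only members (BIM from *Bcl2l11*, PUMA from *Bbc3* and NOXA from *Pmaip1*) bind the pro-survival proteins. In T cells, BCL-2 is known for keeping naive and memory cells alive downstream of IL-7, A1 and BCL-XL for being induced by antigen receptor and NF-κB signaling, and BIM for the death of activated cells. Only RNA was measured here, and no value below reports protein or cell death.

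The members were read in 4 single-cell RNA libraries of CD45+ CD3+ CD8+ Tomato+ cells, 1 each for tumors and draining lymph nodes (LN) of control (CD8-Cre Rosa26Tomato) and CD8-IFNγRKO (CD8-Cre IFNgR1flox/flox Rosa26Tomato) mice engrafted with B16-OVA, a melanoma line that expresses ovalbumin. Cre was driven by CD8a regulatory sequence, so that deletion was directed to CD8 T cells and not to the rest of the host, and the mice of both groups carried Cre and the reporter. The labels give day 12, and cells of 3 mice per genotype went into each library, with no mark in the files that separates the mice. Each genotype was therefore 1 sample per tissue, no test between groups was possible, and the intervals below are 95% counting intervals that leave out variation between mice.

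After the filters on barcodes, 6641 control and 6731 CD8-IFNγRKO cells were kept from LN, with 29934686 and 28841136 unique molecular identifiers (UMIs, tags that mark RNA molecules), and 7103 and 8636 cells from tumors, with 59497796 and 93995655 UMIs. The median cell held 3863 to 4051 UMIs in LN, 6308 in the control tumor and 9402.5 in the CD8-IFNγRKO tumor. Between 169 and 249 barcode sequences were found in both libraries of a pair. *Ifngr1*, the targeted gene, was at 182 and 137 CPM (UMIs of a gene scaled to the library total) in control and CD8-IFNγRKO LN and at 718 and 237 CPM in tumors, and 5′ reads outside the floxed part are counted whether or not it was deleted. The 7 CD8 T cell markers summed to between 5358 and 8749 CPM, and all of them were detected in each library. The 10 macrophage and dendritic cell markers summed to 2.84 to 23.4 CPM and the 5 neutrophil markers to at most 0.0336 CPM. The 5 B cell markers summed to 241 and 250 CPM in control and CD8-IFNγRKO LN, of which *Ighm* made up 223 and 228 CPM, and to 7.56 and 18.7 CPM in tumors, and their part in the differences between tumor and LN was not tested.

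*Bcl2a1b* and *Bcl2a1d* are near-identical copies on chromosome 9, and their sequences are shown because this bears on how their UMIs were split. Of the 250 bases before each annotated transcript start, from RefSeq (GRCm38.p6, the mm10 assembly of the files), 200 aligned, with 198 identical (99.0%). This share leaves out a gap and the unaligned ends. The aligned stretch of *Bcl2a1b* stops short of its annotated start at chr9:89199273. That of *Bcl2a1d* reaches its start, so the annotated starts are offset. *Bcl2a1b* is shown at chr9:89199023-89199228 on the plus strand and *Bcl2a1d* at chr9:88731851-88732050 on the minus strand, both 5′ to 3′, with capitals for bases that differ from, or are missing in, the other copy.
Bcl2a1b: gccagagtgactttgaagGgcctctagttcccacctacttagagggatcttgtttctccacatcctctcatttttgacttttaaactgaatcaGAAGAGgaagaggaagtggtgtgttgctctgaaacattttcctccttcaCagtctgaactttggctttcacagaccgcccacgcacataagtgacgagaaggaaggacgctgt
Bcl2a1d: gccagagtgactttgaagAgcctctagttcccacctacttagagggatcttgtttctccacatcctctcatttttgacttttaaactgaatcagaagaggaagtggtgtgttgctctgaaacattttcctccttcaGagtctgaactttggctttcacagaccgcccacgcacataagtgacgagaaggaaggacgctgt
These bases lie outside the annotated transcripts, whose sequences were not compared, so how many reads fit both copies equally well is not known. Such a read cannot be assigned, so the level of either copy, and the split between them, are uncertain. *Bcl2a1a*, a further copy, had 77 UMIs in the control tumor, 25 in the CD8-IFNγRKO tumor and 0 in both LN libraries.

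*Bcl2l11* is shown because it was the only member past 1.5-fold between the genotypes when all UMIs were summed over all tumor cells. The gene lies at chr2:128126038-128162547, and the 250 bases before its first annotated start, chr2:128125788-128126037 on the plus strand, hold a match to the forkhead motif TGTTTAC, given in capitals as its reverse complement GTAAACA.
Bcl2l11: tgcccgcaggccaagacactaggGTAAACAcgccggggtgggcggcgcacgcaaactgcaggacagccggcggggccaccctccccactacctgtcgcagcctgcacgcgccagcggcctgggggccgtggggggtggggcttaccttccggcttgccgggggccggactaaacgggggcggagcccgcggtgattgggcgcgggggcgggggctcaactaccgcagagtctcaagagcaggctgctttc
On both strands, TGTTTAC occurred in 3.17% of 32841 windows of this length. Among the windows of the members it also occurred before 1 of 3 annotated starts of *Bbc3*, 167 bases before that start on chromosome 7. *Bcl2l1* also had 3 windows, *Bcl2l11* had 2, and the other members but *Pmaip1* had 1 each. Neither the interferon-γ activated site TTCNNNGAA, found in 7.02% of windows, nor the core of the interferon-stimulated response element, found in 2.98%, occurred in a window of a member, and *Pmaip1* had no window in the table. Matches of the κB motif, found in 3.90% of windows, lay before a start of *Bcl2l1* and of *Bbc3*, where 2 overlapping matches were read.

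Tumor cells were first compared with LN cells of the same genotype. The A1 copies, *Pmaip1*, *Bcl2l1* and *Bak1* were higher in tumors in both genotypes, *Bcl2* and *Bbc3* were lower, and *Mcl1* was within 1.5-fold. With T cell receptor, mitochondrial, ribosomal and heat shock genes left out of the totals, *Mcl1* was lower past 1.5-fold in the CD8-IFNγRKO tumor, at a log2 ratio of -0.75. In control cells, 7 members were higher and 2 lower in the tumor by 1.5-fold or more, where 25.5% and 22.9% of 9535 genes with at least 5 CPM on either side were (48.4% in either direction). In CD8-IFNγRKO cells, 5 were higher and 2 lower, against 26.9% and 25% of 9527 genes. The median log2 ratio of the members was 1.35 in control and 0.71 in CD8-IFNγRKO cells, and that of all genes compared 0.01 and 0.02. All log2 ratios and fold differences between groups were taken with 1 CPM added to both sides. Folds of genes that are low on 1 side are therefore smaller than the printed CPM would give. Levels are CPM of UMIs from 5′ ends, so that they are not divided by length and are compared within a gene.

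**Figure D1:**
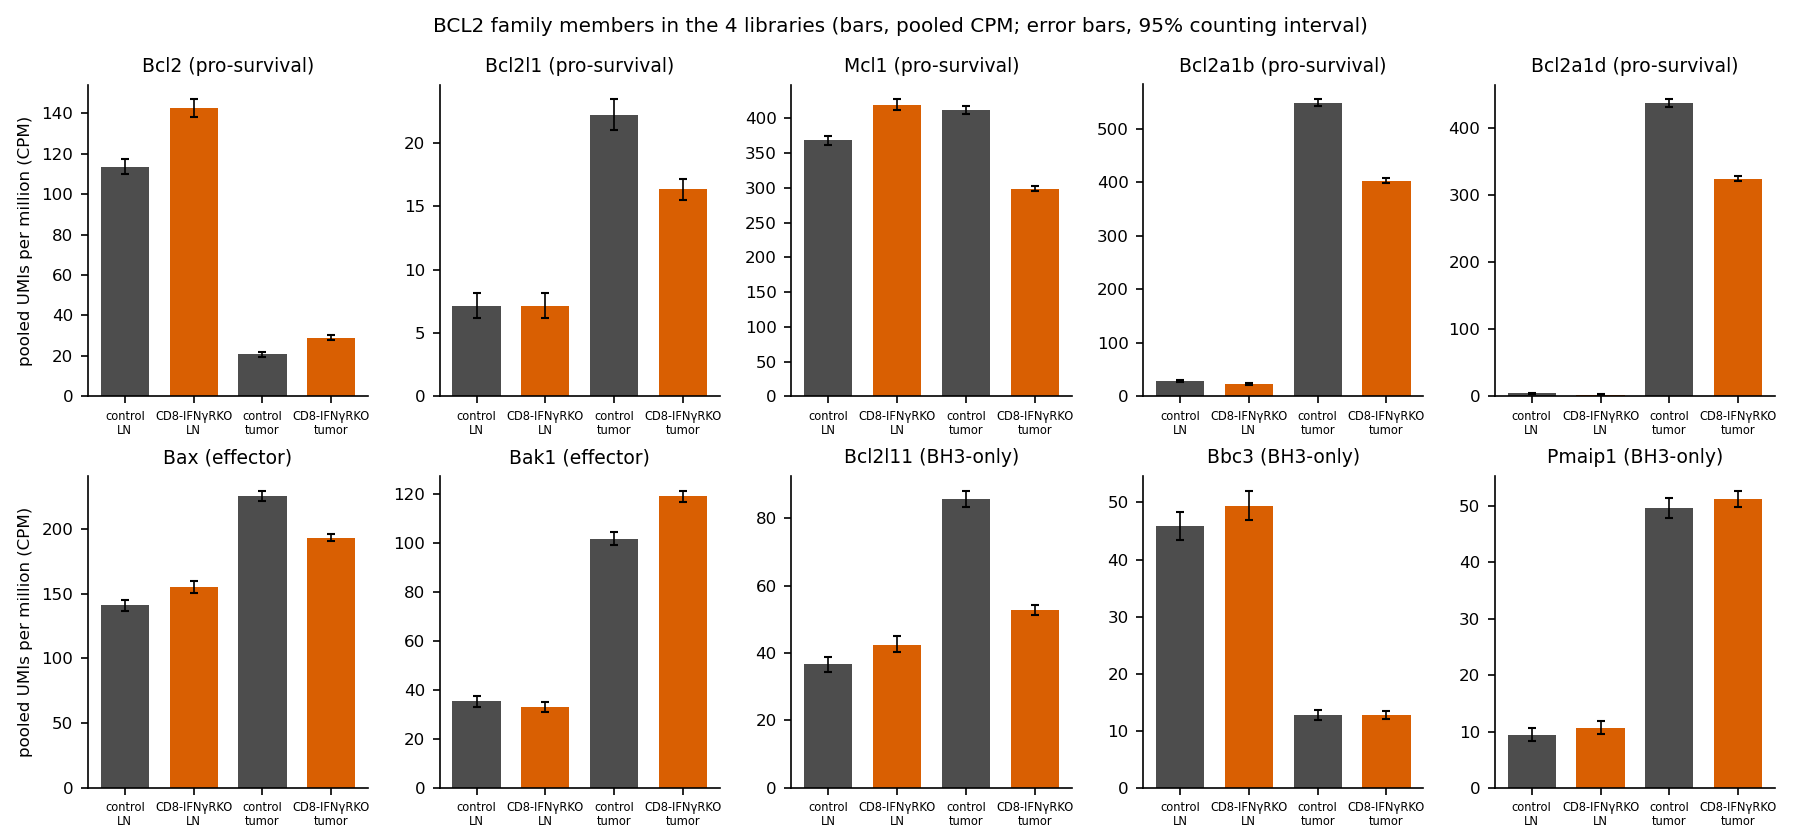
Pooled CPM of each of the 10 members (vertical axes, each from 0) in control and CD8-IFNγRKO LN and tumor libraries (horizontal axes), with 95% counting intervals. *Bcl2* and *Bbc3* stand highest in LN and both A1 copies highest in tumors, while *Bcl2l11* is at 85.7 CPM in the control tumor and 52.7 CPM in the CD8-IFNγRKO tumor.

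Among the pro-survival members, *Bcl2* (chr1:106538176-106714290) was at 113.5 CPM (109.7 to 117.4) in control LN, 142.4 (138.0 to 146.8) in CD8-IFNγRKO LN, 20.7 (19.6 to 21.9) in the control tumor and 29.0 (27.9 to 30.1) in the CD8-IFNγRKO tumor. No pair of these intervals overlapped, and the tumor lay 2.40 (2.31 to 2.49) log2 units below LN in control cells, a 5.27-fold difference. In CD8-IFNγRKO cells the tumor was lower by 4.78-fold. *Bcl2l1* was at 7.12 and 7.11 CPM in control and CD8-IFNγRKO LN, from 213 and 205 UMIs, and at 22.2 and 16.3 CPM in the respective tumors. Its LN values were indistinguishable, with a log2 ratio of -0.00 (-0.25 to 0.25), and in tumors its log2 ratio was -0.42 (-0.52 to -0.32), CD8-IFNγRKO over control. *Mcl1*, which encodes a short-lived protein and lies at chr3:95656944-95663179, was at 368 CPM (361 to 375), 420 (412 to 427), 412 (407 to 417) and 299 (295.5 to 302.5) in control LN, CD8-IFNγRKO LN, control tumor and CD8-IFNγRKO tumor. CD8-IFNγRKO LN and the control tumor were neighbours with overlapping intervals, and the CD8-IFNγRKO tumor was the lowest of the 4 libraries.

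*Bcl2a1b* was at 28.2 and 22.6 CPM in control and CD8-IFNγRKO LN and at 549 and 403 CPM in tumors, 18.8-fold and 17.1-fold higher. *Bcl2a1d* was at 4.34 and 2.67 CPM in LN, from 130 and 77 UMIs, and at 437 and 324 CPM in tumors, 81.9-fold and 88.6-fold higher with 1 CPM added to both sides. Both copies were thus abundant in tumor cells of either genotype and scarce in LN, and in both tissues the control library was the higher. For each *Bcl2a1b* UMI there were 0.154 (0.127 to 0.186) and 0.118 (0.0922 to 0.150) *Bcl2a1d* UMIs in control and CD8-IFNγRKO LN, and 0.796 (0.783 to 0.809) and 0.804 (0.792 to 0.817) in tumors. The split between the copies therefore differed between the tissues, and not detectably between the genotypes over all cells of a tissue. The *Bcl2a1b* UMIs made up 3.57% of all members' UMIs in control LN and 28.6% in the control tumor.

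Of the effectors, *Bax* was at 141 CPM (137 to 145) in control LN, 155 (150.5 to 160) in CD8-IFNγRKO LN, 225 (222 to 229) in the control tumor and 193 (190 to 196) in the CD8-IFNγRKO tumor. Its tumor to LN log2 ratio was 0.67 (0.62 to 0.72) in control cells, past 1.5-fold, but not with those gene classes left out of the totals. In CD8-IFNγRKO cells the ratio was 0.32 (0.27 to 0.36). *Bak1* was at 35.3 and 33.0 CPM in LN, with overlapping intervals, and at 102 (99.2 to 104) and 119 (117 to 121) CPM in tumors, control before CD8-IFNγRKO. It was 2.83-fold higher in the tumor than in LN in control cells and 3.53-fold higher in CD8-IFNγRKO cells.

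The BH3-only members did not differ in 1 direction between the tissues. *Bcl2l11* was at 36.7 CPM (34.5 to 38.9) in control LN, 42.5 (40.2 to 44.96) in CD8-IFNγRKO LN, 85.7 (83.4 to 88.1) in the control tumor and 52.7 (51.2 to 54.2) in the CD8-IFNγRKO tumor. The order was the same with cells thinned to equal depth, where the levels were 34.0, 43.3, 97.9 and 68.2 CPM. Its tumor to LN log2 ratio was 1.20 (1.11 to 1.30) in control and 0.30 (0.21 to 0.39) in CD8-IFNγRKO cells, a difference of 0.90 (0.77 to 1.03) by size. *Bbc3* was at 45.9 and 49.4 CPM in LN and at 12.8 and 12.7 CPM in tumors, lower by 3.41-fold and 3.68-fold. *Pmaip1* was at 9.39 and 10.6 CPM in LN and at 49.6 and 51.2 CPM in tumors, higher by 4.87-fold and 4.48-fold. For both genes the 2 genotypes had overlapping intervals in each tissue.

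Receptor loss, CD8-IFNγRKO over control, was compared within tumors and within LN, in the same 4 libraries that gave the tumor to LN ratios above. In tumors, *Bcl2l11* alone passed 1.5-fold, at a log2 ratio of -0.69 (-0.75 to -0.64), where 9.13% of 9026 genes passed in either direction, 5.12% higher and 4.01% lower. The share of 1 in 10 members is near that of all genes. *Mcl1* was at -0.46 (-0.49 to -0.44), *Bcl2a1b* at -0.44 (-0.47 to -0.42), *Bcl2a1d* at -0.43 (-0.45 to -0.41) and *Bcl2l1* at -0.42 (-0.52 to -0.32), all lower and within 1.5-fold. *Bcl2* went the other way, at 0.46 (0.37 to 0.56). The effectors differed in sign, with *Bax* at -0.22 (-0.25 to -0.19) and *Bak1* at 0.22 (0.18 to 0.27), and *Bbc3* and *Pmaip1* were at -0.01 (-0.13 to 0.12) and 0.05 (-0.02 to 0.11). The median over the 10 members was -0.32, and 0.01 over all genes compared. Which member passed differed between settings, and the reason was not tested. With each cell thinned to 1600 UMIs, *Bcl2l11* was at -0.52 and *Bcl2* at 0.63, and with the mean of each cell's own CPM they were at -0.56 and 0.67, so that *Bcl2* passed 1.5-fold and *Bcl2l11* did not.

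In LN, 0 of the 9 members with at least 5 CPM passed 1.5-fold, against 0.512% of 8792 genes. The log2 ratios were 0.32 (0.26 to 0.39) for *Bcl2*, 0.21 (0.09 to 0.32) for *Bcl2l11*, 0.19 (0.15 to 0.23) for *Mcl1* and 0.14 (0.08 to 0.20) for *Bax*. *Bcl2a1b* was at -0.31 (-0.45 to -0.17), and *Bcl2a1d*, under 5 CPM in both libraries and so not counted, at -0.54 (-0.86 to -0.22). *Bcl2*, *Bcl2a1b* and *Bcl2a1d* had the same sign in both tissues, while *Bcl2l11*, *Mcl1* and *Bax* were above control in LN and below it in tumors. The difference of the log2 ratios, tumor minus LN, was -0.90 (-1.03 to -0.77) for *Bcl2l11*, -0.65 (-0.69 to -0.61) for *Mcl1* and -0.36 (-0.43 to -0.29) for *Bax*, again for counting error only. It was -0.42 (-0.68 to -0.16) for *Bcl2l1*, and above 0 for *Bak1*, at 0.32 (0.19 to 0.45), and *Bcl2*, at 0.14 (0.03 to 0.25). The intervals of the remaining members held 0.

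**Figure D2:**
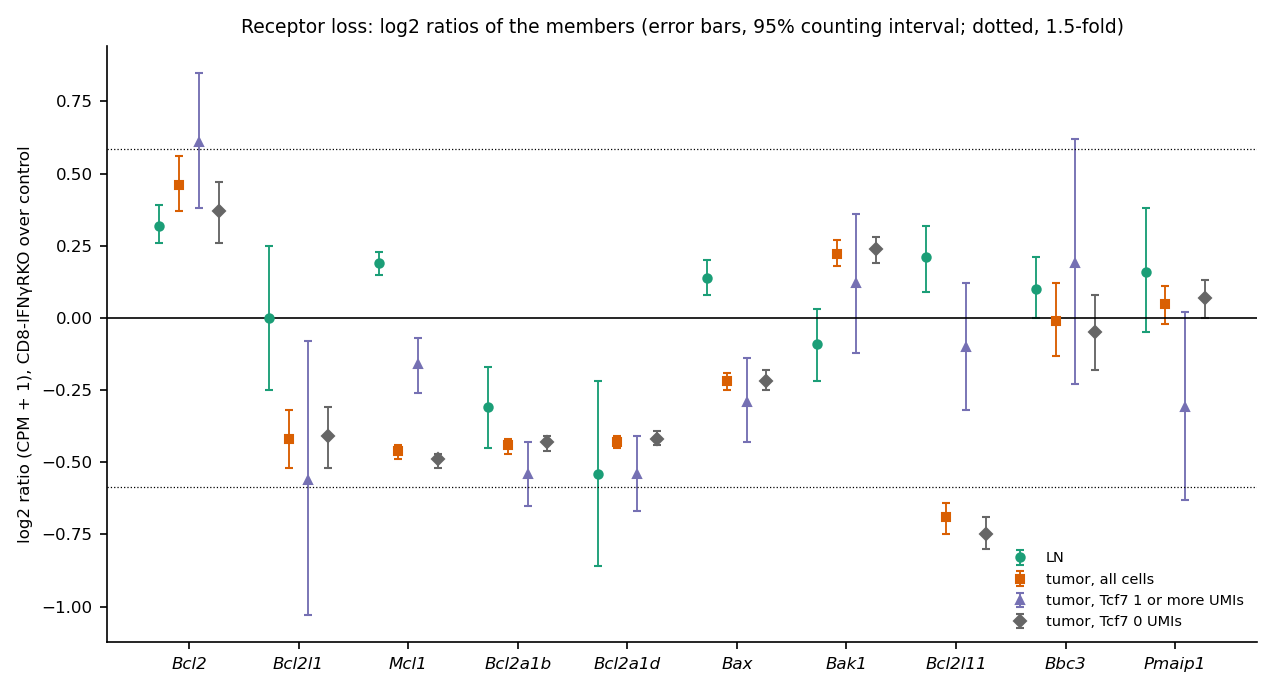
Log2 ratio of CPM + 1, CD8-IFNγRKO over control (vertical axis), of the 10 members (horizontal axis) in LN, all tumor cells, and tumor cells with and without a *Tcf7* UMI, with 95% counting intervals and dotted lines at 1.5-fold. *Bcl2l11* lies below the lower line in all tumor cells and in those without *Tcf7*, at -0.69 and -0.75, and near 0 in those with *Tcf7*, at -0.10.

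Tumor cells were then split by *Tcf7*, which encodes the transcription factor TCF1 of naive and stem-like T cells. At least 1 UMI was found in 372 of 7103 control cells (5.24%) and 837 of 8636 CD8-IFNγRKO cells (9.69%), and the remaining 6731 and 7799 cells had none. Thinning to 1600 UMIs left out 701 control and 278 CD8-IFNγRKO tumor cells with fewer UMIs. Classes by UMIs of a gene were then read again from the thinned UMIs, so they did not hold the same cells. The shares with *Tcf7* were 2.97% and 5.37% after thinning. Cells with *Tcf7* were shallower, with a median of 4562.5 and 4521 UMIs against 6394 and 9901 in those without. In LN, where 85.1% and 84.8% of cells had a *Tcf7* UMI, no split was made. The 7 naive or stem-like markers summed to 977 and 1041 CPM in cells with *Tcf7* and to 134 and 107 CPM in those without. The 5 B cell markers, mostly from the immunoglobulin gene *Ighm*, were also higher in cells with *Tcf7*, at 50.5 and 78.5 against 5.496 and 14.8 CPM, and their part in the differences was not tested.

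In control tumors, 2 members were higher and 1 lower in cells with *Tcf7* by 1.5-fold or more, against 6.72% and 6.45% of 9183 genes. In CD8-IFNγRKO tumors, 4 were higher and 3 lower, against 9.06% and 7.27% of 9191 genes. *Bcl2* was the highest above in both, with 68.8 CPM (59.3 to 79.4) against 18.4 (17.3 to 19.6) in control and 105.6 (97.3 to 114.3) against 24.0 (23.0 to 25.1) in CD8-IFNγRKO cells, log2 ratios of 1.85 (1.62 to 2.07) and 2.09 (1.96 to 2.22). *Bbc3* was at 22.7 against 12.3 CPM in control and 26.0 against 11.8 CPM in CD8-IFNγRKO cells. A pro-survival and a BH3-only gene were thus both higher in the cells with *Tcf7* of either genotype, and these were also the members past 1.5-fold higher in LN than in tumors in both genotypes.

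*Bcl2l11* and *Mcl1* passed in the CD8-IFNγRKO tumor and not in the control tumor, where *Mcl1* did pass with thinned cells, at a log2 ratio of 0.63. *Bcl2l11* was at 94.1 CPM (82.9 to 106) with *Tcf7* and 85.3 (82.9 to 87.7) without in control cells, with overlapping intervals, and at 87.6 (80.1 to 95.6) and 50.4 (49.0 to 51.9) in CD8-IFNγRKO cells. Only the CD8-IFNγRKO cells without *Tcf7* stood low, and the other 3 groups lay between 85.3 and 94.1 CPM. *Mcl1* was at 506 and 408 CPM in control cells with and without *Tcf7*, and at 452 and 289 CPM in CD8-IFNγRKO cells. In the other direction, *Bcl2a1d* was at 291 against 444 CPM in control and 200 against 332 CPM in CD8-IFNγRKO cells, past 1.5-fold in both. *Bcl2a1b* (273 against 411 CPM) and *Bak1* (79.6 against 122 CPM) passed in CD8-IFNγRKO cells, the former at a log2 ratio of -0.59 (-0.66 to -0.51) that is close to the limit. With cells thinned to 1600 UMIs and the classes read again, the A1 copies lay further apart between the classes. *Bcl2a1d* was at -1.48 in control and -2.13 in CD8-IFNγRKO cells, from 43 and 51 UMIs in the cells with *Tcf7*. *Bcl2a1b* was at -0.86 and -1.22. How much of this came from depth and how much from the change of cells was not tested. *Bak1* was then at -1.17 and -0.71, from 13 and 50 UMIs in the cells with *Tcf7*. *Bax*, at 219 against 226 CPM and 179 against 194 CPM, and *Bcl2l1*, at 21.6 against 22.2 CPM and 14.3 against 16.5 CPM, were within 1.5-fold in both genotypes. *Pmaip1* was at 43.9 against 49.8 CPM in control and 35.3 against 52.3 CPM in CD8-IFNγRKO cells, also within 1.5-fold. After thinning, *Bcl2l1* passed as lower in both, at -0.81 and -1.01, from only 4 control and 6 CD8-IFNγRKO UMIs in the cells with *Tcf7*. *Pmaip1* then passed in CD8-IFNγRKO cells, at -0.98, from 20 UMIs in those with *Tcf7*. It also passed under 2 of the other alternatives.

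Receptor loss was read again within these classes. In cells with *Tcf7*, *Bcl2* was the member past 1.5-fold, at 0.61 (0.38 to 0.85), against 9.18% of 9226 genes in either direction, 5.38% higher and 3.8% lower. It did not pass with all barcodes, where it was at 0.46, with 10 CPM added, at 0.55, or with the mean of each cell's CPM, at 0.58. In cells without *Tcf7*, *Bcl2l11* was, at -0.75 (-0.80 to -0.69), against 9.67% of 9008 genes, 5.35% higher and 4.32% lower, and at -0.55 after thinning it did not pass. In cells with *Tcf7*, *Bcl2l11* was at -0.10 (-0.32 to 0.12). The difference between the classes was 0.65 (0.42 to 0.87) for *Bcl2l11* and 0.33 (0.23 to 0.43) for *Mcl1*, whose ratios were -0.16 (-0.26 to -0.07) with and -0.49 (-0.52 to -0.47) without *Tcf7*. For *Pmaip1* the difference was -0.38 (-0.70 to -0.05). For the A1 copies it was -0.11 (-0.22 to 0.01) and -0.12 (-0.25 to 0.01), intervals that hold 0. With thinned cells, however, *Bcl2a1d* was at -0.98 (-1.59 to -0.37) with and -0.34 (-0.40 to -0.27) without *Tcf7*, and *Bcl2a1b* at -0.79 (-1.20 to -0.38) and -0.44 (-0.49 to -0.38), so that a difference between the classes was not settled. *Bcl2l11* was then at -0.08 (-0.68 to 0.54) with and -0.55 (-0.69 to -0.42) without *Tcf7*, from 34 control and 76 CD8-IFNγRKO UMIs in the former. *Mcl1* was at -0.19 (-0.43 to 0.05) and -0.47 (-0.54 to -0.41). For both genes the intervals of the classes overlapped after thinning.

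**Figure D3:**
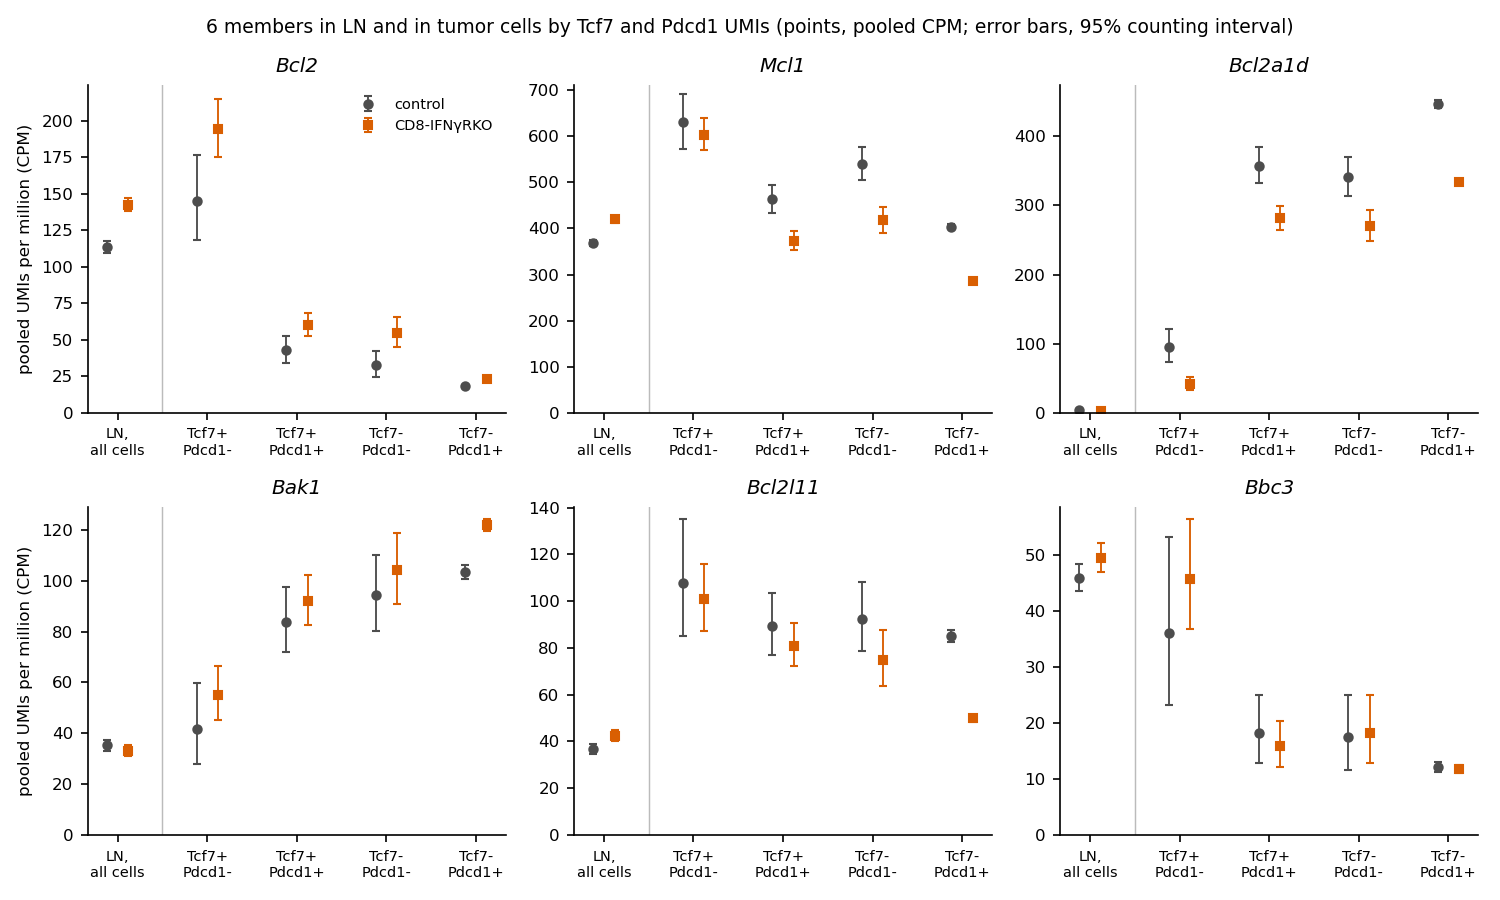
Pooled CPM (vertical axes, from 0) of *Bcl2*, *Mcl1*, *Bcl2a1d*, *Bak1*, *Bcl2l11* and *Bbc3* in all LN cells and in tumor cells with (+) or without (-) UMIs of *Tcf7* and *Pdcd1* (horizontal axes), for control and CD8-IFNγRKO libraries, with 95% counting intervals. *Bcl2* in tumor cells with *Tcf7* and no *Pdcd1*, at 145 and 194 CPM, is above its LN level, and *Bcl2l11* is lowest among tumor classes in CD8-IFNγRKO cells with *Pdcd1* and no *Tcf7*, at 49.8 CPM.

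*Pdcd1*, which encodes the inhibitory receptor PD-1, divided the cells with *Tcf7* further. *Bcl2* was at 145 CPM (118 to 177) in the 181 control cells and 194 (175 to 215) in the 458 CD8-IFNγRKO cells with *Tcf7* and no *Pdcd1*, and at 42.7 (34.2 to 52.7) and 60.0 (52.4 to 68.3) in the 191 and 379 cells with both. After thinning, those without *Pdcd1* were at 129 (87.3 to 185) and 169 (137 to 206) CPM. Their *Bcl2* was thus above that of LN cells of the same genotype before thinning, and their *Bcl2a1d*, at 94.96 and 41.1 CPM, was below the 357 and 281 CPM of the cells with both. *Bcl2a1d* per *Bcl2a1b* UMI was 0.717 (0.515 to 0.995) in these control cells and 0.396 (0.302 to 0.516) in CD8-IFNγRKO cells, lower in the latter and with intervals that barely meet. After thinning it was 0.488 (0.275 to 0.841) and 0.312 (0.189 to 0.498), and these intervals overlapped more widely. *Bcl2l11* varied less, from 80.9 to 108 CPM over the 4 groups with *Tcf7*. The log2 ratio of *Bcl2*, CD8-IFNγRKO over control, passed 1.5-fold in all cells with *Tcf7* but in neither part. It was 0.48 (0.13 to 0.85) with *Pdcd1* and 0.42 (0.10 to 0.75) without. After thinning it was 0.38 (-0.22 to 1.02) without *Pdcd1*, and with *Pdcd1* it rested on 1 control UMI. The part that the shares of these cells had in the ratio was not tested.

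*Mki67*, a gene of cycling cells, was found in 26.3% of control and 45.9% of CD8-IFNγRKO tumor cells (10.3% and 17.9% after thinning), so the genotypes differed in the share of such cells. *Bcl2l11* was at 71.7 CPM (68.5 to 75.1) in control and 43.8 (42.2 to 45.6) in CD8-IFNγRKO cells with *Mki67*, and at 96.7 (93.4 to 100.1) and 67.6 (64.9 to 70.3) in those without. Its log2 ratio of CD8-IFNγRKO over control was -0.70 (-0.78 to -0.61) with and -0.51 (-0.59 to -0.43) without *Mki67*, the latter within 1.5-fold. Cells with *Mki67* were deeper, with a median of 12597.5 against 5350 UMIs in control and 13863 against 6296 in CD8-IFNγRKO cells. After thinning the ratios were -0.44 (-0.83 to -0.04) with and -0.50 (-0.64 to -0.36) without *Mki67*, both within 1.5-fold and not in the same order. *Bcl2* was at 13.5 and 20.7 CPM in control and CD8-IFNγRKO cells with *Mki67* and at 26.5 and 42.9 CPM without. Its log2 ratios of 0.59 (0.43 to 0.75) and 0.68 (0.56 to 0.79) were both past 1.5-fold, the former barely. Both were above the 0.46 of all tumor cells, which was within 1.5-fold. After thinning they were 0.61 (-0.11 to 1.38) and 0.68 (0.46 to 0.90), against 0.63 in all tumor cells. The share of all genes past 1.5-fold was not read in the classes by *Mki67*. *Bbc3*, at -0.01 in all tumor cells, was at -0.34 (-0.51 to -0.17) with and 0.38 (0.20 to 0.56) without *Mki67*, in opposite directions. After thinning it was at -0.61 (-1.42 to 0.24) and 0.42 (0.10 to 0.74), and the former interval holds 0.

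Clones, read from the T cell receptor libraries of the tumors, gave a comparison that *Tcf7* did not define. A clone was read for 4284 of 7103 control and 5937 of 8636 CD8-IFNγRKO tumor cells, and the other cells were left out. Clones of at least 5 cells held 4034 control and 5518 CD8-IFNγRKO cells, and 182 and 364 cells were the only cell of their clone. Single-cell clones were shallower, with a median of 4041 against 6270 UMIs in control and 3997.5 against 10420.5 in CD8-IFNγRKO cells. In control cells, 5 members were higher and 2 lower in expanded clones by 1.5-fold or more, against 17.8% and 13.2% of 9275 genes (31% in either direction), and in CD8-IFNγRKO cells 4 were higher and 4 lower, against 22.6% and 16.4% of 9309 genes (39%). *Bcl2* was at 16.8 CPM in expanded clones against 102 in single-cell clones of the control tumor, and 23.0 against 194 in the CD8-IFNγRKO tumor. *Bbc3* was likewise lower in expanded clones, at 12.5 against 25.3 CPM and 11.9 against 38.4 CPM. *Bcl2a1b*, *Bcl2a1d*, *Bak1* and *Pmaip1* were higher in expanded clones of both genotypes, *Bcl2a1d* at 435.5 against 134 CPM and 328 against 66.97 CPM. *Bcl2l1*, the other member counted as higher in control cells, had a log2 ratio of 0.73 with an interval of -0.04 to 1.60, which holds 0. *Bcl2l11*, at 85.6 (82.3 to 88.9) against 107 (86.4 to 130) CPM in control, was within 1.5-fold, and it was lower past 1.5-fold in CD8-IFNγRKO cells, at 48.9 (47.2 to 50.7) against 115 (99.7 to 132) CPM, and the log2 ratios differed by -0.90 (-1.26 to -0.55). With all barcodes it also passed in control cells, at -0.71, and with thinned cells the ratios were -0.20 and -0.67. Receptor loss within single-cell clones was -0.93 (-1.20 to -0.66) for *Bcl2a1b* and -0.99 (-1.36 to -0.62) for *Bcl2a1d*, below the -0.44 (-0.47 to -0.41) and -0.41 (-0.44 to -0.38) of expanded clones. For *Bcl2* it was 0.92 (0.59 to 1.26), against 0.43 (0.29 to 0.57). After thinning, single-cell clones were at -0.92 (-1.46 to -0.37), -1.06 (-1.88 to -0.25) and 0.77 (0.18 to 1.41) for these genes. Expanded clones were then at -0.48 (-0.55 to -0.41), -0.34 (-0.41 to -0.26) and 0.45 (0.15 to 0.75), and the intervals overlapped for each gene. *Tcf7* itself was at 353.8 and 473 CPM in single-cell clones and at 4.94 and 4.82 CPM in expanded ones, so the clone classes and the *Tcf7* classes overlap.

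The opposing genes *Bcl2* and *Bcl2l11* were set against each other as UMIs of *Bcl2* per UMI of *Bcl2l11*, a ratio that uses no library total. In LN it was 3.10 (2.89 to 3.32) in control and 3.35 (3.14 to 3.57) in CD8-IFNγRKO cells, and in tumors 0.242 (0.227 to 0.258) and 0.551 (0.525 to 0.577). With *Tcf7* it was 0.732 (0.603 to 0.886) and 1.21 (1.07 to 1.36), and without, 0.216 (0.202 to 0.231) and 0.477 (0.452 to 0.502). The CD8-IFNγRKO tumor was above the control tumor in each class of cells read, and every tumor class was below LN. In cells with *Tcf7* and no *Pdcd1*, at 1.35 (0.989 to 1.84) and 1.93 (1.62 to 2.30), the intervals of the genotypes overlapped. Another pair did not show this in each class. *Mcl1* per *Bcl2l11* UMI was 4.81 (4.67 to 4.96) and 5.67 (5.51 to 5.85) in control and CD8-IFNγRKO tumors. With *Tcf7* it was 5.38 (4.70 to 6.17) and 5.16 (4.69 to 5.69). *Bcl2* made up 1.08% and 1.93% of all members' UMIs in these tumors. These are counts of RNA ends of different genes, so the distance from 1 has no meaning of its own.

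**Figure D4:**
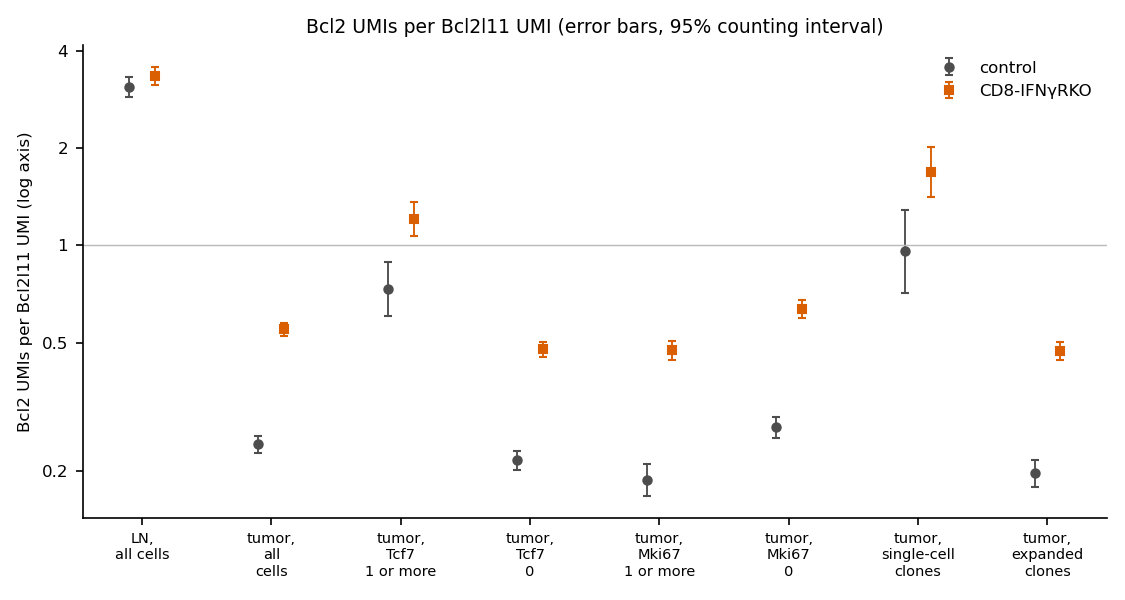
UMIs of *Bcl2* per UMI of *Bcl2l11* (vertical log axis) in LN and in tumor cells by *Tcf7*, *Mki67* and clone size (horizontal axis), for control and CD8-IFNγRKO libraries, with 95% counting intervals. LN stands highest at 3.10 and 3.35, and the CD8-IFNγRKO point is above the control point in each tumor class.

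Of 47 further genes of the pathway, 35 had at least 5 CPM in a tumor library, and 3 were higher and 3 lower by 1.5-fold or more with receptor loss, where 5.12% and 4.01% of all genes were. *Bid*, a BH3-only gene whose product is cut by caspase-8, was at 24.4 CPM in CD8-IFNγRKO and 11.7 in control tumors, *Bnip3*, which encodes a mitophagy receptor, at 84.3 and 52.6 CPM, and *Birc5*, which encodes survivin and is expressed in dividing cells, at 266 and 167.5 CPM. *Fasl*, a death ligand, was at 74.0 and 116 CPM, *Foxo3*, a forkhead factor, at 10.7 and 16.7 CPM, and *Rel*, an NF-κB subunit, at 38.4 and 70.7 CPM. In LN, 0 of 34 passed, where 0.512% of all genes did.

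Between tumor and LN, 11 of 36 pathway genes were higher and 7 lower in control cells, and 10 and 7 in CD8-IFNγRKO cells. These shares are near those of all genes, of which 25.5% and 22.9% passed in control and 26.9% and 25% in CD8-IFNγRKO cells. Among those higher in both were *Apaf1* and *Cycs*, which encode parts of the apoptosome, *Bad*, *Bnip3*, *Birc5*, *Fasl*, *Il2ra* and *Il2rb*. Lower in both were *Il7r*, which encodes the IL-7 receptor, at 61.0 and 47.5 CPM against 352 and 389 CPM, and *Foxo1*, *Foxo3*, *Trp53*, *Stat5b* and *Tnfrsf10b*. *Il7r* was higher in tumor cells with *Tcf7*, at 192 against 54.7 CPM in control and 197 against 37.8 CPM in CD8-IFNγRKO cells, as *Bcl2* was, and so was *Fas*, at 38.8 against 18.9 CPM and 42.9 against 13.4 CPM. The cycling markers summed to 321 CPM in the control and 485 CPM in the CD8-IFNγRKO tumor, and their part in the values of *Birc5* was not tested.

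Genes with the most similar profile were searched among 6709 genes over 6 groups of cells, the LN libraries and each tumor library by *Tcf7*, by the distance between centred log2 values. For *Bcl2* these were *Trbv29*, *Cxcr4* and *Macrod1*, at distances of 0.32, 0.34 and 0.45. For *Bcl2a1b* they were *Eea1*, *Itga1* and *Mdfic*, at 0.17, 0.20 and 0.28. A gene was searched if it reached 20 CPM in any of the groups, so it could be nearly absent from others. *Itga1* was at 0.2 and 0 CPM in control and CD8-IFNγRKO LN, where *Bcl2a1b* was at 28.2 and 22.6 CPM. The distance of *Itga1* therefore depended on the CPM added before logs were taken, and shows no likeness within LN. For *Bcl2l11* they were *Gch1*, *Errfi1* and *Hgsnat*, at 0.34, 0.36 and 0.37. *Gch1*, for example, was at 71.3 CPM in control and 43.4 CPM in CD8-IFNγRKO tumor cells without *Tcf7*, and at 90.8 and 69.1 CPM in those with it.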

How the data were processed

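The authors sorted the cells, prepared 5′ libraries (10x Genomics), mapped reads with Cell Ranger (6.0.0 per the file headers) to mm10, and deposited raw UMI counts per gene and barcode, for barcodes called cells and without normalization. The authors also deposited filtered contigs of 2 T cell receptor libraries.

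A barcode was kept if *Cd2*, *Cd8a* and *Cd8b1* each had 1 UMI or more, if 200 to 6000 genes were detected, if mitochondrial genes made up no more than 3% of its UMIs, and if its most abundant gene did not exceed 20%. Doublets were neither called nor removed, and 2 to 14 kept cells per library with 3 or more markers of another type were left in. UMIs were summed over cells and scaled to CPM with pandas 2.3.3, scipy 1.17.1 and numpy 2.4.6 under Python 3.11.15. A gene was compared where it had at least 5 CPM on either side, and counted when its log2 ratio (1 CPM added) passed 1.5-fold. *Tcf7* was left out where it defined the cells, and receptor segments where clones did. Intervals at 95% are exact (Poisson for CPM, conditional binomial for ratios) or normal for differences of log2 ratios. They cover counting error only. Ratios and their intervals were tested on simulated counts. Thinning to 1600 UMIs was checked on the control tumor library, by the UMIs left in each cell. A clone shared V and J genes and CDR3 of both chains. TMM factors came from edgeR 4.0.16 in R 4.3.3, and plots from matplotlib 3.10.9. Each count was recomputed without the barcode filter, with thinned cells, other totals, TMM factors, 10 CPM added, no minimum level, means over cells, and without shallow, shared or other-type barcodes. With 1 library per group, no test was run and no p-value given. All 10 members were named, and pathway genes by being past 1.5-fold, some of which are counted but not reported here by name. The members and gene lists were chosen with earlier results of these data known.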

Additional observations from a re-analysis of the deposited data

Results flagged for a closer look

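In 4 of 40 member and group pairs looked at, the groups moved in opposite directions under the same contrast, with both counting intervals clear of 0. The share of all genes that would do so was not read, so this count has no background beside it. Classes by *Mki67* were not among these pairs. With 1 library per group, these differences were not tested against variation between mice. Receptor loss went with lower *Bcl2l11* in tumors (-0.69) and higher in LN (0.21), a difference of -0.90 log2 units. *Mcl1* was at -0.46 in tumors and 0.19 in LN, a difference of -0.65. *Bax* was at -0.22 and 0.14, a difference of -0.36. The same 4 libraries, read as tumor against LN, gave *Mcl1* at 0.16 in control and -0.49 in CD8-IFNγRKO cells, which is the same difference of -0.65. With T cell receptor, mitochondrial, ribosomal and heat shock genes left out of the totals, *Mcl1* in control cells was at -0.12, and the directions were no longer opposite.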

How the results depend on the processing

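Of 106 counts of members past 1.5-fold under alternative settings, 97 were within 1.5 times the value reported and 9 were not. Only the number was compared, so the 97 include counts whose members changed. For receptor loss in tumors, *Bcl2* (higher) replaced *Bcl2l11* (lower) with thinned cells and with the mean of each cell's CPM. With that mean, *Bcl2a1d* (lower) replaced *Bcl2* (higher) in cells with *Tcf7*. Of 661 values of single members, 516 stayed within their counting interval, 145 moved beyond it, and no member past 1.5-fold changed sign. In LN, receptor loss gave 1 (*Bcl2a1d*) in place of 0 with T cell receptor, mitochondrial, ribosomal and heat shock genes out of the totals, which scales all CPM up. For *Tcf7* in the control tumor, 3 became 7 with thinned cells and 5 with the mean of each cell's CPM. For receptor loss in cells with *Tcf7*, 1 became 7 with thinned cells, 4 with 2 or more *Tcf7* UMIs, 2 with cells under 2000 UMIs left out, and 0 with all barcodes or with 10 CPM added. Among the 7, the intervals of *Bcl2l1* (-2.44 to 1.40), *Bak1* (-0.20 to 1.67) and *Bbc3* (-0.11 to 2.23) held 0. *Bcl2l1* there rested on 4 control and 6 CD8-IFNγRKO UMIs, and *Bbc3* on 8 and 38. In cells without *Tcf7*, 1 became 0 with thinned cells. The cause of these shifts was not tested, and the share of all genes that passed was not read under these settings. Leaving those gene classes out of the totals also ended the counts of *Bcl2a1d* by *Tcf7* in control cells and of *Bak1* by clone size, and, like 10 CPM added, those of *Bcl2a1b* and *Bak1* by *Tcf7* in CD8-IFNγRKO cells. With 10 CPM added, *Bbc3* by *Tcf7* and *Bcl2l1* and *Bak1* by clone size in control cells no longer passed. *Bcl2l11*, tumor against LN in CD8-IFNγRKO cells, ranged from 0.05 to 0.71 and passed under 2 alternatives. Leaving the named gene classes out of the totals moved the median of all genes, tumor against LN, to -0.27 in control and -0.24 in CD8-IFNγRKO cells, and TMM factors moved the latter to 0.13. No paired analysis was possible because each group held 1 library. Thinned cells with *Tcf7* were 190 and 449, so that *Bcl2* there rested on 31 and 117 UMIs.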
